A study of Drosophila melanogaster with 3 samples.

Results

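The mitochondrial ribosomal protein genes of *Drosophila melanogaster* were taken as the genes of Ensembl release 115 whose symbol begins with mRpL or mRpS and a number. The rule found 73 genes among 13968 protein-coding genes, 47 named for the large subunit and 26 for the small one. The genes were set against the binding of GFP-tagged net, measured by chromatin immunoprecipitation and sequencing (ChIP-seq) with an antibody to GFP. The chromatin came from whole prepupae, males and females together and of unknown age, of 1 transgenic line that stably makes net fused at its C-terminal end to GFP, and it was sheared by sonication. There were 3 biological replicates, numbered 1, 3 and 4, in 1 group with no second genotype or treatment, so the data hold no comparison between conditions. No control library was analysed here, so the lists cannot separate net's own signal from what an anti-GFP precipitation gives at these genes without the tagged protein, and whole animals cannot show which cells carried it. The net gene encodes a basic helix-loop-helix (bHLH) transcription factor known for its part in wing vein patterning.

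The deposited lists give peaks of enrichment over a control alignment. The list called on the pooled libraries and cut by the irreproducible discovery rate (IDR) procedure held 7571 peaks on build dm6, with a signal from 134 to 3742 and a median of 225. Signal is the authors' own value per peak and has no stated unit, so it was used only to describe and rank peaks within a list. Each library also had its own relaxed list of 30000 peaks, and the 7571 strongest of these are called its top list. The lists hold no read counts, so the depth of the libraries is unknown. A gene was said to have a promoter summit when the summit of an IDR peak, its point of highest enrichment, lay within 500 bp of any annotated transcription start site (TSS) of that gene.

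Mitochondrial ribosomes translate the few messages that the mitochondrial genome encodes, which are core subunits of the respiratory chain and ATP synthase. The mRp proteins themselves are encoded in the nucleus, made in the cytoplasm and imported. Some descend from bacterial ribosomal proteins, such as those numbered like their bacterial counterparts, and others are found only in mitochondrial ribosomes. The symbols do not always match the place of the protein: in mammals the proteins named S18A and S30 sit in the large subunit. The mRp genes were short, with a median span of 909 bp and a range of 390 to 13391 bp, against a median of 2164.5 bp over all protein-coding genes, so counts were also set beside 3805 other protein-coding genes of like span, 593 to 1464 bp.

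The sequence under 8 of the 12 strongest mRp promoter summits is shown first because most mRp promoter summits lay on AT-rich DNA. The windows of mRpL41, mRpL18 and mRpL34 are not printed here, and that of mRpL23 is left out because most of it is 5′ UTR. Each line gives the 101 bases centred on the summit, 5′ to 3′ on the strand of the mRp gene, from the Release 6 genome sequence of RefSeq, which is build dm6. Capitals mark matches, on either strand, to the E-box CANNTG that bHLH proteins recognise, to the promoter words TATCGATA, GGTCACAC, GAGAG and CGCANGCG, to the AT-rich word ATATTA, to another such word, TACTAA, as well as to TCTTAA and finally to ATCTTA. The AT-rich words were taken from an earlier description of these same peaks, and ATCTTA and TCTTAA can share letters. The mRpS23 window is chr2L:13835411-13835511, on the minus strand, and holds 1 E-box. The mRpS10 window is chr3R:15229472-15229572 on the plus strand, with no match. The mRpL24 window is chr2L:4945468-4945568 on the minus strand. The mRpL20 window is chr3L:13018075-13018175 on the minus strand, and at 17.8% GC it was the poorest in GC of the mRp windows. The mRpS2 window is chr2L:4850559-4850659 on the minus strand, the mRpL2 window chr3L:11120474-11120574 on the plus strand, the mRpS6 window chr3L:4364406-4364506 on the plus strand and the mRpS24 window chr3R:24163766-24163866 on the minus strand.
mRpS23: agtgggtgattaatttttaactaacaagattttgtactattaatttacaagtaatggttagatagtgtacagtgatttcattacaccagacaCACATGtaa
mRpS10: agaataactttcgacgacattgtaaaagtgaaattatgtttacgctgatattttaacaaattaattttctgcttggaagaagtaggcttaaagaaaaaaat
mRpL24: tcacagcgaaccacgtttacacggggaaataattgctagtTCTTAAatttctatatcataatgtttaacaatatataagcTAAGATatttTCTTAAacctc
mRpL20: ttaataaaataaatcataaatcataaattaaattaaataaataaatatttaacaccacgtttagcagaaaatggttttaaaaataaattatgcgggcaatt
mRpS2: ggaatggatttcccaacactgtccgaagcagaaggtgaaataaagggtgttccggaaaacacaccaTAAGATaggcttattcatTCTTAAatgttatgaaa
mRpL2: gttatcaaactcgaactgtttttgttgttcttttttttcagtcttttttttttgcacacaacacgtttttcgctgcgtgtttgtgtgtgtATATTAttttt
mRpS6: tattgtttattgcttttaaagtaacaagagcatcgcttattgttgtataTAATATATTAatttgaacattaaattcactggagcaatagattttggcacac
mRpS24: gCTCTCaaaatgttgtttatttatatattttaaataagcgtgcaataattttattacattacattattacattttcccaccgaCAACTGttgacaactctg

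Of the 73 mRp genes, 16 had a promoter summit, which is 21.9% (95% Clopper-Pearson interval 13.1 to 33.1%, which covers counting error over genes only). The background was 18.2% over all 13968 protein-coding genes, 8.75% over those of like span and 8.54% when the share of all protein-coding genes was averaged over the span deciles of the mRp genes. The mRp share was thus near that of protein-coding genes at large and above that of genes as short as themselves. With the limit widened to the whole gene or 2 kb around it, 30 mRp genes (41.1%, interval 29.7 to 53.2%) had an IDR summit, against 34.4% over all protein-coding genes, 21.2% over those of like span and 21.2% from the span deciles. Of these 30 genes, 14 had a summit only outside the promoter limit, and the other 43 mRp genes had none. No test was made of these differences, since the genes were chosen with earlier results of these peaks known.

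The count depends on giving a summit to every gene whose start it is near. When each summit counted only for the gene with the nearest TSS, 6 mRp genes (8.22%) kept a promoter summit, against 5.94% of the genes of like span and 14.9% of all protein-coding genes. In the relaxed pooled list of 30000 peaks, 27 mRp genes (37.0%) had a promoter summit, against 17.8% of the genes of like span and 33.6% of all.

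The 3 libraries gave like counts when read separately. In the top list of replicate 1, 18 mRp genes (24.7%) had a promoter summit, against 9.49% of the genes of like span. In replicate 3 there were 20 (27.4%), against 10.8%. In replicate 4 there were 17 (23.3%), against 8.67%. The mean was 25.1% ± 2.09 (SD, n = 3) for the mRp genes, 9.65% ± 1.07 for genes of like span and 19.3% ± 1.85 for all protein-coding genes, so the mRp and like-span shares did not overlap between libraries. A top-list promoter summit was present in all 3 libraries at 13 mRp genes and in at least 1 library at 25. Neither count is given here for other genes, so they cannot be set beside the shares above. A call in any of 3 libraries raises the share of every gene set. The 9 of these 25 mRp genes with no IDR promoter summit were mRpL32, in replicates 1 and 3, and mRpL36, mRpL51, mRpS7, mRpS16, mRpS17, mRpS21, mRpS25 and mRpS31, each in 1 library. The libraries are separate biological samples of 1 line, and nothing further on how they were raised is given in the sources used here.

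By subunit, 9 of 47 genes named for the large subunit (19.1%, interval 9.15 to 33.3%) and 7 of 26 named for the small subunit (26.9%, interval 11.6 to 47.8%) had a promoter summit. With the gene or 2 kb the counts were 20 (42.6%) and 10 (38.5%). A class by origin was set by hand from the protein numbering and textbook knowledge, with mRpS24 placed as the counterpart of bacterial S3, since no file gives it. Of the 43 genes so classed as having a bacterial counterpart, 11 (25.6%) had a promoter summit, and of the 30 classed as specific to mitochondria, 5 (16.7%). Apart from mRpS24 the class follows the number alone. Some of the 30 may have a bacterial counterpart under another number, so the classes are rough. The intervals overlap within each pair, and no order was read from them. By chromosome arm, 3 of 12 genes on 2L, 4 of 12 on 2R, 6 of 17 on 3L and 3 of 21 on 3R had a promoter summit. None of the 11 on the X had one, a count that allows a share of up to 28.5% (upper bound of the same interval). The share over genes of like span was 8.86% on 2L, 7.67% on 2R, 9.26% on 3L, 9.92% on 3R and 7.68% on the X, and over all protein-coding genes it lay between 17.3% on 2R and 19.4% on the X. The interval of the X count holds both backgrounds of that arm.

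**Figure D1:**
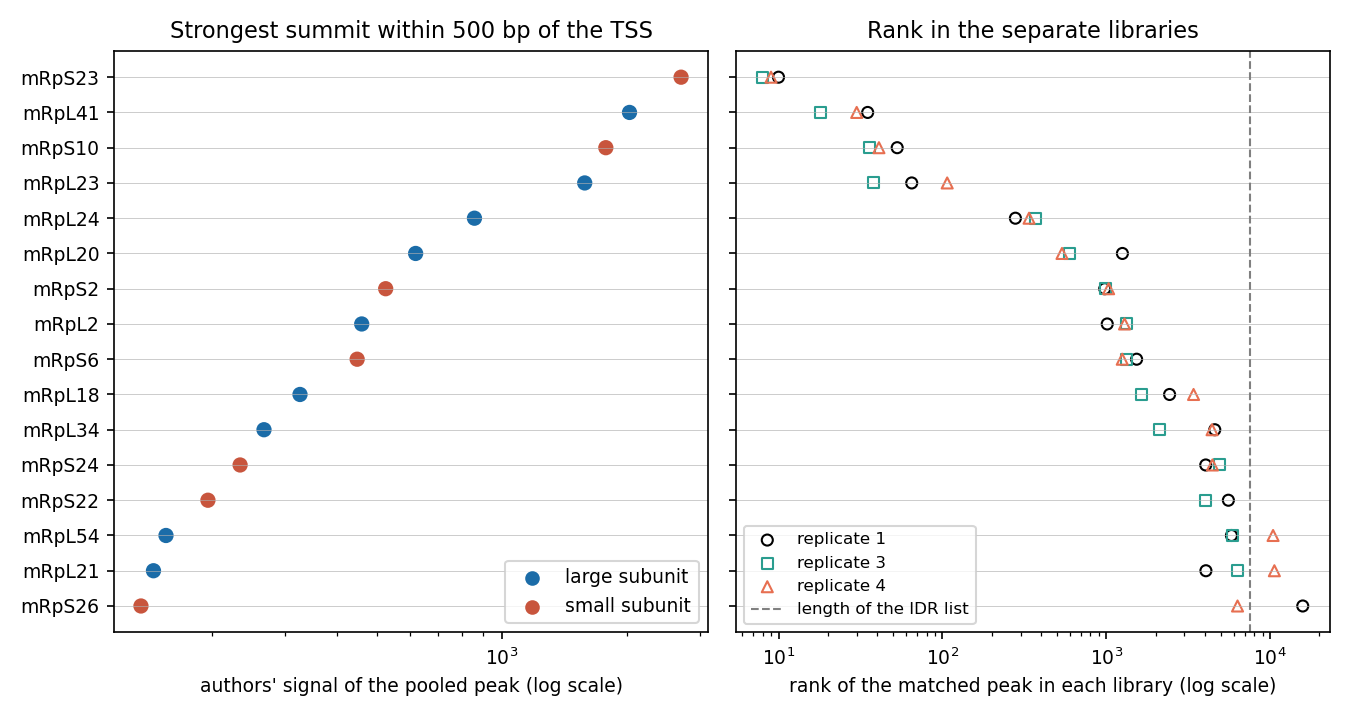
The 16 mRp genes with a promoter summit, from the strongest to the weakest. Left, the authors' signal of the pooled IDR peak, log scale, coloured by subunit, from 2703 at mRpS23 to 135 at mRpS26; right, the rank of the matched peak in each of the 3 libraries, log scale, with a dashed line at 7571, the length of the IDR list. The 4 strongest rank at 107 or better in each library, and matches beyond the line or missing fall among the 4 weakest.

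The promoter summits of the mRp genes had a higher median signal than those of the background groups. The median signal of the strongest promoter summit per gene was 453 over the 16 mRp genes, with a range of 135 to 2703. It was 271 over the 2538 protein-coding genes with a promoter summit and 321 over those of like span. Over those of like span with a divergent partner gene it was 359. With the summit nearest to the TSS taken instead of the strongest, the mRp median was 387. No background median by the nearest summit is given here, so 387 cannot be set beside these values. In 4 parts of the list of like size, from the strongest peaks on, the 16 summits fell 9, 3, 1 and 3, where the shares over all protein-coding genes were 37.5%, 24.0%, 21.0% and 17.5%. Among the 100 strongest peaks, a limit set after the values had been seen, 4 mRp genes (5.48%) had their promoter summit, against 0.616% of all protein-coding genes, 0.526% of those of like span and 1.75% of those of like span that have a divergent partner gene. Of the 16 summits, 12 (75%) were matched within 100 bp in the top lists of all 3 libraries, against 63.3% over all protein-coding genes and 70.3% over those of like span.

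The strongest belonged to mRpS23 (FBgn0260407, chr2L:13834250-13835072, minus strand), which encodes a small-subunit protein found only in mitochondria. Its summit, 389 bp upstream of the TSS, had a signal of 2703 and rank 10 in the IDR list. The matched peak had a signal of 721, 1114 and 874 in replicates 1, 3 and 4 and ranked 10, 8 and 9. All 3 libraries therefore placed it among their strongest peaks, with a mean rank of 9 ± 1 (SD, n = 3). Next was mRpL41 (FBgn0034001, chr2R:15217024-15217617, minus strand), for a large-subunit protein found only in mitochondria, with a signal of 2030 and rank 23, 139 bp upstream. The libraries gave it 521, 893 and 637, at ranks 35, 18 and 30. It was the sole member of the 16 with no divergent partner gene.

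The gene mRpS10 (FBgn0038307, chr3R:15229665-15230516, plus strand) encodes the counterpart of bacterial S10, a protein of the small subunit's head. Its summit 143 bp upstream had a signal of 1780 and rank 42, and 478, 737 and 562 in replicates 1, 3 and 4 at ranks 53, 36 and 41. The gene mRpL23 (FBgn0035335, chr3L:2372844-2373704, minus strand) encodes the counterpart of bacterial L23, which lies at the exit of the peptide tunnel. Its summit lay 63 bp downstream of the TSS, in the 5′ UTR, with a signal of 1583 and rank 60, and the libraries gave 445, 733 and 425 at ranks 65, 38 and 107. All 4 genes were thus among the strongest peaks of every library.

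The middle of the order ran from mRpL24, another protein of the tunnel exit, to mRpS6. The mRpL24 summit, 157 bp upstream, had a signal of 859 and rank 321, with library signals of 267, 304 and 293 at ranks 279, 368 and 338. The mRpL20 summit, 258 bp upstream, had 619 and rank 677, and its library ranks were more spread, at 1255, 600 and 537. L20 is an early assembly protein of the bacterial large subunit. The mRpS2 summit, 190 bp upstream, had 524 and rank 928, with library ranks of 979, 984 and 1034. For mRpL2, whose bacterial counterpart helps form the peptidyl transferase centre, the strongest summit lay 323 bp upstream in an intron of FoxK and had 459 and rank 1184, with library ranks of 1014, 1333 and 1293. A second, weaker mRpL2 summit lay 121 bp upstream with a signal of 140. The mRpS6 summit, 94 bp upstream, had 448 and rank 1231, with library ranks of 1532, 1327 and 1252. Every one of these 5 genes was matched in all 3 top lists.

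The weaker part held 7 genes. The mRpL18 summit, 139 bp upstream, had a signal of 326 and rank 2188, with library ranks of 2435, 1640 and 3410. The mRpL34 summit, 222 bp upstream, had 267 and rank 2953, with library ranks of 4594, 2099 and 4423. The mRpS24 summit, 271 bp upstream, had 234 and rank 3605, with library ranks of 4047, 4892 and 4447. These 3 were still matched in every top list, and the next 4 were not. The mRpS22 summit, 282 bp upstream, had 196 and rank 4638, ranked 5563 and 4013 in replicates 1 and 3, and was not matched in replicate 4; a second mRpS22 summit, 59 bp upstream with a signal of 171, was matched in all 3 top lists at ranks 6936, 6188 and 6364. The mRpL54 summit, 11 bp downstream, had 155 and rank 6288, with library ranks of 5808, 5879 and 10424. The mRpL21 summit, 205 bp upstream, had 145 and rank 6894, with library ranks of 4057, 6330 and 10617. These 3 summits were the ones that replicate 4 alone did not have in its top list. The weakest, mRpS26, had 135 and rank 7526, 183 bp upstream; it ranked 15815 in replicate 1 and 6326 in replicate 4 and was not matched in replicate 3, so 1 top list held it.

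**Figure D2:**
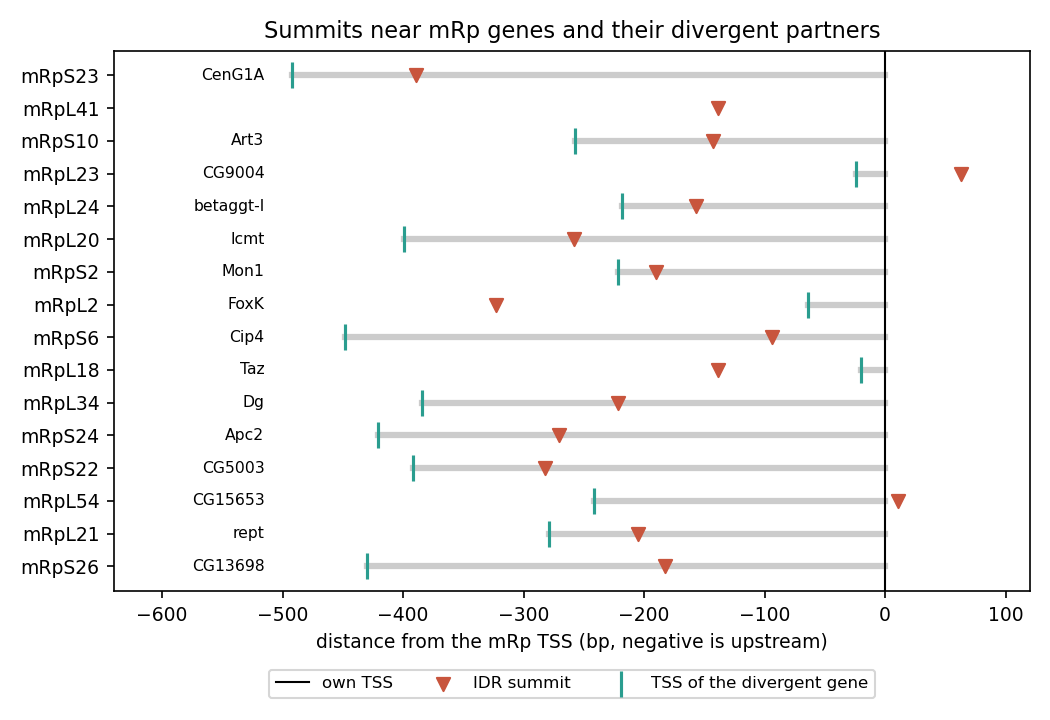
Position of the strongest promoter summit of each of the 16 mRp genes (triangles) relative to its own TSS at 0 (black line), in bp with upstream negative; green ticks are the TSS of the divergent protein-coding gene, named at the left, and grey bars the stretch between both starts. In 11 genes the summit lies on the grey bar; mRpL41 has no partner.

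Most mRp genes share their upstream region with a gene that runs the other way. A divergent partner, here a protein-coding gene on the opposite strand whose TSS lies upstream within 500 bp, was present at 53 of 73 mRp genes (72.6%), against 24.1% of the genes of like span and 27.3% of all protein-coding genes. Of the 16 genes with a promoter summit, 15 had a partner. In 11 of these 15 the summit lay between both starts, and in 11 it lay nearer to the partner's TSS than to the mRp gene's, with 9 genes in both counts. The partners hold mixed roles: CenG1A, an Arf GTPase-activating protein, for mRpS23, with its TSS 103 bp from the summit; Art3, an arginine methyltransferase, for mRpS10, at 114 bp; betaggt-I, a protein prenyltransferase subunit, for mRpL24, at 61 bp; Icmt, an isoprenylcysteine methyltransferase, for mRpL20, at 141 bp; Mon1, part of a Rab exchange factor, for mRpS2, at 32 bp. The other partners nearer to the summit were FoxK, a forkhead factor, for mRpL2, Taz, the cardiolipin remodelling enzyme tafazzin, for mRpL18, the dystroglycan gene Dg for mRpL34, Apc2 for mRpS24, CG5003 for mRpS22 and rept, a chromatin-linked ATPase, for mRpL21. The mRp gene's own start was nearer for mRpL23, whose partner CG9004 starts 24 bp away, and for mRpS6, mRpL54 and mRpS26.

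With a divergent partner, 15 of 53 mRp genes (28.3%, interval 16.8 to 42.3%) had a promoter summit, against 20.4% of 916 genes of like span with a partner (interval 17.8 to 23.2%). Without one, 1 of 20 mRp genes had it (5%, interval 0.127 to 24.9%), against 5.05% of 2889 genes of like span (interval 4.28 to 5.92%). Within each arrangement the mRp share lay nearer to that of genes of like span than it did over all genes. The intervals overlapped, but with 53 and 20 mRp genes they are wide, so the overlap does not show that the shares are alike. This division was chosen after the peaks had been seen and was not tested. It depends on the limit: with partner starts within 250 bp, 6 of 25 mRp genes with a partner (24%) and 10 of 48 without (20.8%) had a promoter summit, against 17.7% and 7.36% of the genes of like span. With the limit at 1000 bp the mRp counts were 16 of 58 (27.6%) and 0 of 15, against 18.2% and 4.47%.

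**Figure D3:**
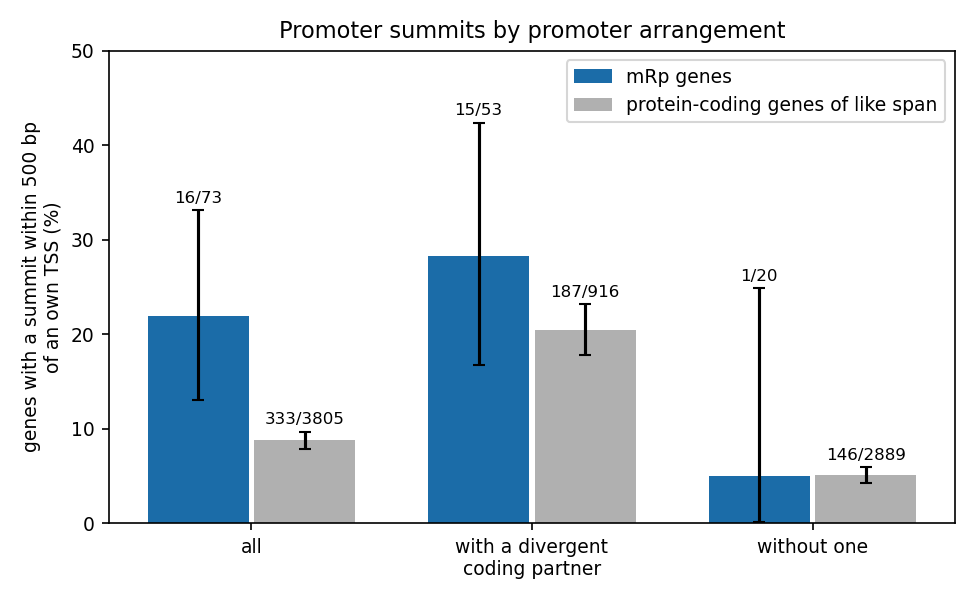
Share of genes with an IDR summit within 500 bp of an own TSS, for the 73 mRp genes (blue) and the protein-coding genes of like span (grey), over all genes and divided by the presence of a divergent protein-coding partner; bars start at 0, error bars are 95% Clopper-Pearson intervals and labels give the counts. The bars differ over all genes, 21.9% against 8.75%. Within the arrangements the mRp groups are smaller (53 and 20 genes) and their intervals wide. Overlap there does not show that the shares are alike.

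The strongest summit of each mRp gene mostly lay upstream of its start. Of the 16, 14 were upstream and 2 downstream, at a median distance of 186.5 bp (11 to 389 bp). The median was 150 bp over all protein-coding genes with a promoter summit and 134 bp over those of like span. It was 126 bp over those of like span with a divergent partner. The upstream share was 87.5%, against 77.7% over all and 85.0% over genes of like span. The own TSS was the nearest of any gene in 5 of 16 (31.25%), against 80.2% over all protein-coding genes, 66.4% over those of like span and 47.6% over those of like span with a divergent partner. These shares count the strongest summit only. The second, weaker mRpS22 summit lay 59 bp upstream of its own TSS, which was the nearest. By annotation, 12 summits were intergenic, 3 in a 5′ UTR (of mRpL23, of mRpL54 and of Taz) and 1 in an intron. The 16 summits belonged to 16 separate peaks.

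The summits sat in a sharp dip of GC content. In the 101 bp windows the 16 mRp summits had 30.4% ± 8.35 GC (SD over windows), against 43.2% in windows centred 250 bp to both sides. Promoter summits of all protein-coding genes had 39.2% ± 11.2 (2041 windows), with flanks at 42.9%, and those of like-span genes with a divergent partner had 35.5% ± 10.4 (166 windows), with flanks at 44.3%. Strong peaks were poorer in GC in general: among the 1892 strongest peaks of the list the 9 mRp summits had 27.2% ± 5.90 and the 727 promoter summits of protein-coding genes 34.3% ± 9.79. The mRpL20 window at 17.8% was the lowest of the 16 and the mRpL18 window, inside a 5′ UTR of Taz, the highest at 51.5%. The promoters themselves, from 250 bp before to 50 bp after the most upstream TSS, differed little by summit, with 35.1% ± 5.53 GC for the 16 with one and 36.2% ± 6.40 for the 57 without, against 37.4% over like-span genes and 39.1% over all protein-coding genes.

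**Figure D4:**
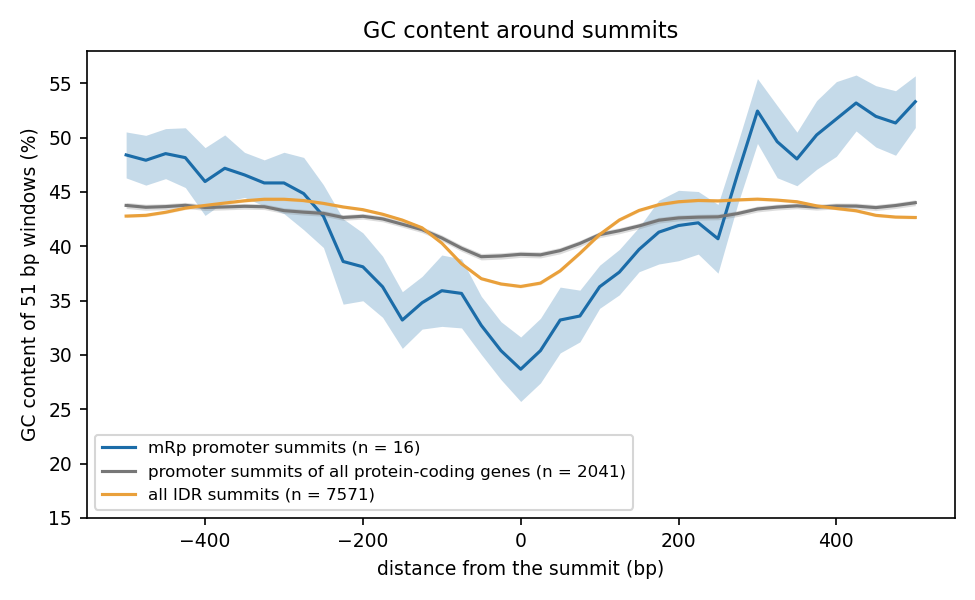
Mean GC content in 51 bp windows by distance from the summit in bp, along the forward strand of the genome, for the 16 mRp promoter summits (blue), the promoter summits of all protein-coding genes (grey) and all IDR summits (orange); shaded bands are the standard error over windows. At the summit the mRp mean is 28.7%, with 39.3% and 36.3% for the others.

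The E-box was not more frequent at these summits than elsewhere. It was within 50 bp of the summit at 4 of 16 mRp genes (25%), at mRpS23, mRpL18, mRpS24 and mRpL54, against 37.5% of their flanking windows and 36.7% of promoter summits of all protein-coding genes. Neither CATATG nor CACGTG, both forms of the E-box, was among the 4. The word ATATTA was there at 5 of 16 (31.25%), against 9.38% of the flanks, 13.8% of promoter summits of all protein-coding genes and 25.3% of those of like-span genes with a divergent partner. It was at mRpL23, mRpL2, mRpS6, mRpS22 and mRpS26, and in the mRpS6 window shown above the capitals join 2 overlapping matches. The words TCTTAA and ATCTTA were found at mRpL24 and mRpS2 (12.5% each). Over promoter summits of like-span genes with a divergent partner the shares were 10.8% and 9.04%. TACTAA was at mRpS22 and GAGAG at mRpS24 (6.25% each), against 8.43% and 9.04% of those summits. No window held TATCGATA, GGTCACAC or CGCANGCG. Their shares were 1.86%, 1.57% and 1.52% over promoter summits of all protein-coding genes. Over those of like-span genes with a divergent partner they were 7.23%, 4.22% and 0%, so 16 windows can hold none. The summit windows were also poorer in GC than their flanks, and the part of base composition in these counts was not tested.

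The promoters of all 73 mRp genes, with a summit or without, were read for the same words. The DNA replication-related element (DRE), TATCGATA, recognised by the factor DREF and frequent at housekeeping promoters in the fly, was within the 300 bp promoter window of 15 of 73 mRp genes (20.5%), against 7.81% of like-span genes, 17.5% of those with a divergent partner and 9.36% of all protein-coding genes. It was at 2 of the 16 genes with a promoter summit (12.5%) and at 13 of the 57 without (22.8%). The core of the fly promoter element Motif 1, GGTCACAC, was in 8 of 73 (11.0%), all among the 57 without a summit, against 5.36% of like-span genes and 12.7% of those with a divergent partner. An E-box was in 67 of 73 windows (91.8%), in 15 of the 16 and 52 of the 57, against 76.7% of like-span genes and 77.2% of all. ATATTA was in 37.5% of the 16 and 38.6% of the 57, against 39.8% of like-span genes with a divergent partner. For TCTTAA these shares were 43.75%, 22.8% and 22.6%. For ATCTTA they were 25%, 14.0% and 18.7%, and for TACTAA 18.75%, 14.0% and 18.2%. Of 4 mRp promoters that hold a DRE, 30 bases are shown on the gene's strand, with the element in capitals; mRpL20 and mRpS23 had a promoter summit, and mRpL10 and mRpL17 had none. The mRpL20 stretch is chr3L:13017859-13017888 on the minus strand, with the first base of the element 10 bp upstream of the TSS; the mRpS23 stretch is chr2L:13835063-13835092 on the minus strand, 9 bp upstream; the mRpL10 stretch is chr2L:203760-203789 on the plus strand, 8 bp upstream; the mRpL17 stretch is chr3L:264764-264793 on the plus strand, 4 bp upstream.
mRpL20: catcgatatttTATCGATAacatgctcatt
mRpS23: aactctgatggTATCGATAggcaccggctg
mRpL10: aaatatctggcTATCGATAagaatgaataa
mRpL17: aagagtatcgcTATCGATAaatggtcgcca

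At 14 mRp genes an IDR summit lay in the gene or within 2 kb but outside the promoter limit. At each of them the strongest such summit was nearest to the TSS of another gene, at a median of 166 bp and at most 789 bp. The choice of genes with no summit within 500 bp of an own TSS favours this, and no like share was counted over other genes. The signals of these 14 summits had a median of 302 and lay between 138 and 960. The strongest was that of mRpL13, at 960 and 1441 bp downstream of its TSS, 128 bp from a TSS of CG10602. For mRpL12, the counterpart of a bacterial stalk protein, it was 659, 1924 bp upstream and 154 bp from the start of GNBP3, a recognition protein of innate immunity. At mRpS9, the longest mRp gene, it was 490, inside an intron of mRpS9 7023 bp downstream of the TSS and 178 bp from a TSS of wtrw. Other mRp genes neighboured cytoplasmic ribosomal protein genes: the mRpL27 summit, with 375, was 13 bp from the start of RpL27A, and the mRpL50 summit, with 363, was 38 bp from that of RpL18. The mRpL40 summit had 370 and lay 45 bp from the start of mgr, and the mRpS7 summit had 166 and lay 19 bp from the start of da, which encodes the bHLH protein daughterless. The mRpS31 summit had 255, 48 bp from the start of hzg, and missed the promoter limit at 505 bp upstream of mRpS31. The rest were mRpL33 with 337 near norpA, mRpL32 with 268 near qless, mRpL49 with 251 near CG4404, mRpL22 with 230 near if, mRpL55 with 143 near cdi and mRpL53 with 138 near AGO1.

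There was no IDR summit in the gene or 2 kb at 9164 of 13968 protein-coding genes and at 2998 of 3805 of like span. The 43 mRp genes with none made up most of both subunits. From the large subunit these were mRpL1, mRpL3, mRpL4, mRpL9, mRpL10, mRpL11, mRpL14, mRpL15, mRpL16, mRpL17, mRpL19, mRpL28, mRpL30, mRpL35, mRpL36, mRpL37, mRpL38, mRpL39, mRpL42, mRpL43, mRpL44, mRpL45, mRpL46, mRpL47, mRpL48, mRpL51 and mRpL52. From the small subunit they were mRpS5, mRpS11, mRpS14, mRpS16, mRpS17, mRpS18A, mRpS18B, mRpS18C, mRpS21, mRpS25, mRpS28, mRpS29, mRpS30, mRpS33, mRpS34 and mRpS35. A divergent partner was present at 29 of these 43, against 72.6% of all mRp genes. The nearest IDR summit was at a median of 11346 bp from the TSS, from 2841 bp to 1441773 bp at mRpS5. Of all 57 mRp genes without an IDR promoter summit, 11 had one in the relaxed pooled list, with signals from 36.5 to 126: mRpS16 at 126, mRpS18B at 124, mRpS25 at 122, mRpS21 at 103, mRpS17 at 98.1, mRpL17 at 82.6, mRpL50 at 71.1, mRpL39 at 63.8, mRpL22 at 42.2, mRpS31 at 38.8 and mRpS5 at 36.5. All were below 134, the lowest signal of the IDR list. The mRp promoter summits of the IDR list had the same rank in the relaxed pooled list. If the IDR list holds its strongest peaks, this bound was fixed in advance. Over all protein-coding genes the share with a promoter summit was 18.2% in the IDR list and 33.6% in the relaxed pooled list. It was 8.75% and 17.8% over those of like span, and 21.9% and 37.0% over mRp genes.

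The other genes of mitochondrial gene expression were read from a list by role, of which 51 could be used, and 9 had a promoter summit (17.6%, interval 8.40 to 30.9%), a share near the 18.2% of all protein-coding genes. The counts by role are small and are given as a description only. None of the 2 mitochondrial ribosomal protein genes outside the symbol rule, bonsai and tko, had one. Among translation factors it was 1 of 9, the initiation factor mIF2 with a signal of 233. Among aminoacyl-tRNA synthetases and the amidotransferase genes it was 2 of 19, GatA with 559 and ArgRS-m with 219. Among transcription factors it was 1 of 7, mTerf5 with 161, matched in 1 top list. Genes of RNA processing and stability had 4 of 10, of which 2 were among the 100 strongest peaks: PNPase, a mitochondrial exoribonuclease, had 3257 and rank 4 with its summit 80 bp downstream of the TSS, and SLIRP2, an RNA-binding protein, had 1393 and rank 77; SLIRP1 had 411 and scu, a subunit of mitochondrial RNase P, 339. Among DNA maintenance genes it was 1 of 4, mtSSB with 236. In 8 of these 9 genes (88.9%) the own TSS was the nearest, near the 80.2% over all protein-coding genes with a promoter summit. It was the nearest in 5 of 16 mRp genes, against 47.6% over genes of like span with a divergent partner.

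In the share with a promoter summit, the mRp genes (21.9%) lay between the cytoplasmic ribosomal protein genes and the genes of oxidative phosphorylation. A promoter summit was present at 58 of 88 cytoplasmic ribosomal protein genes (65.9%, interval 55.0 to 75.7%) and at 8 of 84 genes of oxidative phosphorylation subunits (9.52%, interval 4.20 to 17.9%), against 18.2% of all protein-coding genes and 8.75% of those of mRp-like span. The oxidative phosphorylation share was thus near that of short genes. The median signal of these summits was 380 and 231, against 453 at the mRp genes. The cytoplasmic summits lay at a median of 17 bp from the TSS, which was the nearest in 96.6%, against 50% for oxidative phosphorylation genes, and their highest signal was 866. That is below the 4 strongest mRp summits. No gene of either list had a promoter summit among the 100 strongest peaks. The share over all protein-coding genes was 0.616%, and over those of mRp-like span 0.526%, so lists of 88 and 84 genes can hold none. The limit at rank 100 was set after the values had been seen. Divergent partners were present at 37.5% of the cytoplasmic ribosomal protein genes and 46.4% of the oxidative phosphorylation genes, against 72.6% of the mRp genes. These differences between lists were not tested.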

How the data were processed

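ChIP-seq of GFP-tagged net was deposited as peak lists for 3 libraries of 1 group; per the deposited file descriptions the lists are on build dm6, are relaxed lists per library and pooled, each made with a control alignment, and an IDR-thresholded list. The signal of each peak, its −log10 q-value and its summit offset are the authors' values, and q-values were not used for ranking. Neither aligner nor caller is given in the sources used here. The dm3 lists were not used. Gene models came from Ensembl release 115, without pseudogenes and transposable elements, and coordinates are 1-based on dm6. All counts were made in Python 3.11.15 with pandas 2.3.3, numpy 2.4.6 and scipy 1.17.1, and the counting was tested on simulated data. Like span means from the 10th to the 90th percentile of mRp spans. Summits were matched between lists within 100 bp. A summit counted for every gene whose TSS was near. The mRp genes, the gene lists, the motifs and the alternatives were chosen with earlier results of these data known, and the division by divergent partner and the limit at rank 100 were added after values of these genes were seen. All members are named; full values were given for those with a promoter summit. No test was run, since there is 1 group and the members were chosen with results known. Unmatched gene names of the mitochondrial list were left out. The alternatives were other distances, other peak lists, other start sites, another assignment of summits and each library left out.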

Additional observations from a re-analysis of the deposited data

How the results depend on the processing

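The 16 mRp genes with a promoter summit became 27 in the relaxed pooled list and 6 when a summit counted for the nearest TSS only, and the genes named for the small subunit moved from 7 to 14, to 3, and to 4 when the peak itself had to overlap the TSS. The genes named for the large subunit moved from 9 to 3 with the nearest TSS only, and the other mitochondrial genes from 9 to 14 in the relaxed list. The 30 genes with a summit in the gene or 2 kb became 3 within the gene alone. The mean share per library moved from 25.1% to 15.1% with top lists shortened to the stronger part above their median and to 42.5% with the whole relaxed lists. The 15 mRp genes with a divergent partner and a promoter summit became 6 with partner starts within 250 bp. Each of these settings changes the list, the distance or the gene a summit is given to, and so the count by construction. The backgrounds moved too. The promoter share of like-span genes went from 8.75% to 17.8% in the relaxed list. It was 5.94% with the nearest TSS only and 5.83% with the peak overlapping the TSS. Over all protein-coding genes the share went from 18.2% to 33.6%, 14.9% and 12.0%. For the gene alone and the changed library lists no background is given here. Leaving out each library in turn left 13 to 15 mRp genes with a promoter summit (17.8 to 20.5%). The shares were 6.49 to 7.10% over genes of like span and 12.6 to 14.2% over all protein-coding genes. The mRp counts were 24 to 25 in the gene or 2 kb, 12 to 14 with a divergent partner, and 12 to 15 of 16 summits matched. The only IDR list came from all 3 libraries pooled. A library left out therefore still shaped it, and these are not independent recounts. No paired analysis was possible because there is 1 group. Depth is unknown, which limits any reading of genes with no summit.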
